A study of Homo sapiens with 7 samples.

Results

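Transcripts of 10 genes of the semaphorin, netrin, neuropilin and Robo guidance systems were followed across HT1080 fibrosarcoma cells and 6 derived lines that differed in PTK7, a catalytically inert receptor tyrosine kinase. The genes were SEMA3A, SEMA3C, SEMA7A, PLXNA1, PLXNB2, NRP1, NRP2, NTN4, NTNG1 and ROBO1. They were picked from these families with earlier results of these data known, so their counts beside those of all genes are descriptive only. Probes were assigned through the gene symbols of the annotation. These genes stand for 10 of the 20045 genes with a probe. They are read by 19 of the 30112 probes that name a single gene. RNA was measured on Illumina HumanHT-12 v4 BeadChips, which report the mean bead signal of each probe and a detection p, the share of negative control probes at least as bright. Chz cells overexpressed the Chuzhoi mutant of full-length PTK7, which gains a further cleavage site for the membrane protease MT1-MMP. PTK7 cells overexpressed the full-length membrane protein with a FLAG tag. sPTK7 cells expressed its soluble N-terminal fragment with a FLAG tag. The C-terminal fragments were the membrane form cPTK7/622-1070 and the cytoplasmic form cPTK7/726-1070, both with a V5-HIS tag. shPTK7 cells carried an shRNA against PTK7 in a retroviral vector and were pooled clones. HT1080 control cells, a human fibrosarcoma line, are called parental in the study's text and carry a scrambled control in the deposited labels. All lines shared the HT1080 background and were stably modified, and all cultures were grown for 72 h in the same medium.

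Semaphorins are secreted or membrane-bound cues first known for steering axons. Class 3 semaphorins bind a neuropilin, and the neuropilin pairs with a plexin that carries the signal to the actin cytoskeleton. Netrins are laminin-related cues, netrin-G1 being held at the cell surface by a lipid anchor, and Robo proteins are receptors for Slit ligands. In tumour cells the same systems act on adhesion and migration, and neuropilins also serve as coreceptors for VEGF family growth factors.

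Each line had a single array, and the 7 arrays shared 1 chip. No gene therefore has a replicate check, an error or a p, and precision is limited by how few arrays there are. Between 19045 and 20515 probes were detected per array at a detection p under 0.05. Of 8 mesenchymal markers 7 were detected on all arrays, and FN1 on some. Of the markers of other cell types, CD68 was detected on all arrays, EPCAM and CLDN4 (epithelial), TEK (endothelial), SNAP25 and STMN2 (neuronal) and CD14 (leukocyte) on some, and the others, such as CDH1, PECAM1, SYP and PTPRC, on none. The brightest PTK7 probe gave a raw signal of 135 in shPTK7 cells, which was not above background, and 246 in HT1080 cells. It read 296 in Chz cells and 247 in PTK7 cells. Below the detection threshold it read 141 in sPTK7, 173 in cPTK7/622-1070 and 149 in cPTK7/726-1070 cells, so the low reading was not particular to shPTK7 cells. A second PTK7 probe was detected only in Chz and HT1080 cells, at 210 and 196. The place of these probes in the transcript was not analysed here, so they do not check the labels of the overexpressing lines.

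Values are those of the brightest probe of a gene, given as a normalized signal, a linear value that holds an added offset of 16 and can be compared between arrays but not between genes. All 10 genes were detected on all 7 arrays. Of their 19 probes 14 were detected on every array, 3 on some and 2 on none. A difference was called where 2 arrays lay at least 2-fold apart and the brighter one was detected. The PTK7 array gave the lowest signal of the 7 for 6 of the 10 genes (SEMA3A, SEMA3C, NRP1, NTN4, NTNG1 and ROBO1), while it was the lowest for 21.5% of the 9552 genes detected on all arrays. The Chz array gave the highest signal for 5 genes (SEMA3C, PLXNA1, NRP1, NTN4 and ROBO1), against 19.3% of all such genes. In the plot of all signals these arrays stand at opposite ends for SEMA3C, NRP1, NTN4 and ROBO1.

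**Figure D1:**
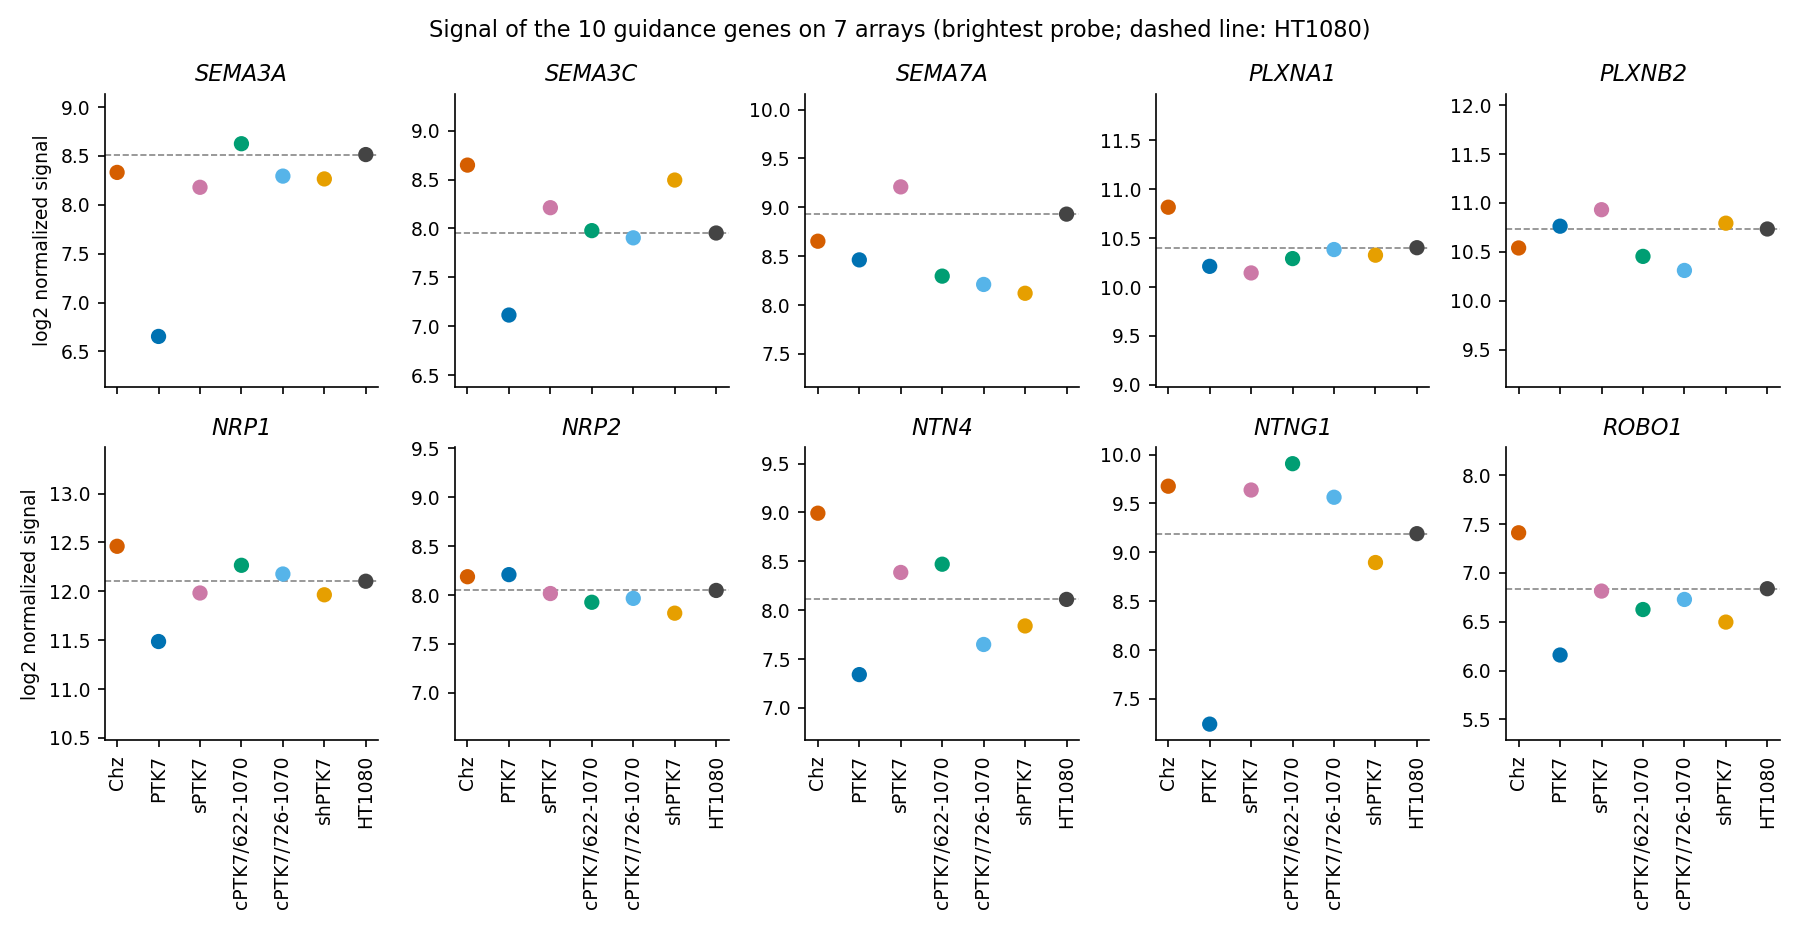
Log2 normalized signal (vertical axis, each panel spanning 3 log2 units) of the brightest probe of each gene on the 7 arrays (horizontal axis, 1 point per array, dashed line at the HT1080 level). The PTK7 array is the lowest point for 6 of the 10 genes, and the Chz array the highest for 5.

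Netrin-G1 showed the widest range of the 10 genes. NTNG1 encodes this lipid-anchored netrin, whose partner on other cells is the adhesion protein encoded by LRRC4C. Its normalized signal was 818 in Chz cells, 151 in PTK7 cells, 796 in sPTK7 cells, 960 in cPTK7/622-1070 cells, 757 in cPTK7/726-1070 cells and 476 in shPTK7 cells, against 584 in HT1080 cells. The PTK7 array was the only one far below the rest, and 4 of the other lines read above HT1080 cells. NTNG1 was 3.86-fold lower in PTK7 cells than in HT1080 cells, a log2 fold of -1.95. It was one of 2 of the 10 genes called lower there, with SEMA3A, while 3.98% of all tested genes were called lower and 2.79% higher in that line. None of the 10 was called higher. Only 0.684% of tested genes read at least as low as NTNG1. The second NTNG1 probe, annotated to the same transcript, read 594 in Chz cells, 164 in PTK7 cells, 779 in sPTK7 cells, 795 in cPTK7/622-1070 cells, 675 in cPTK7/726-1070 cells and 393 in shPTK7 cells, against 560 in HT1080 cells. Both probes thus placed the PTK7 array lowest and shPTK7 cells next, and the second gave log2 folds of -1.77 in PTK7 cells and 1.85 for Chz over PTK7 cells. The study names NTNG1 and SEMA3A among its changed genes from these same arrays, so the calls here are not independent evidence of their direction.

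NTN4, a secreted netrin found in basement membranes, had its highest signal in Chz cells. The normalized signal was 509 in Chz cells, 162 in PTK7 cells, 334 in sPTK7 cells, 355 in cPTK7/622-1070 cells, 201 in cPTK7/726-1070 cells and 229 in shPTK7 cells, against 276 in HT1080 cells. The log2 fold against HT1080 cells was 0.88 in Chz cells and -0.77 in PTK7 cells, both under the 2-fold limit. The 2 arrays lay on either side of the HT1080 array, and Chz cells were 3.14-fold above PTK7 cells. A second NTN4 probe was dim and was detected only in Chz cells, so it gives no other order.

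ROBO1, a receptor for Slit ligands, was dim, and 2 of its 3 probes were not detected on any array. The third read 170 in Chz cells, 71.5 in PTK7 cells, 113 in sPTK7 cells, 98.7 in cPTK7/622-1070 cells, 106 in cPTK7/726-1070 cells and 90.3 in shPTK7 cells, against 114 in HT1080 cells. Chz cells were again highest and PTK7 cells lowest, with log2 folds against HT1080 cells of 0.57 and -0.68 for these lines.

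SEMA3A, the secreted semaphorin that collapses growth cones through neuropilin-1 and A-type plexins, was lower in PTK7 cells. Its normalized signal was 322 in Chz cells, 101 in PTK7 cells, 290 in sPTK7 cells, 395 in cPTK7/622-1070 cells, 314 in cPTK7/726-1070 cells and 308 in shPTK7 cells, against 366 in HT1080 cells. The other 5 lines stayed within 1.26-fold of HT1080 cells, whereas PTK7 cells were 3.63-fold lower (log2 fold -1.86). At least as low were 0.775% of tested genes. SEMA3A and NTNG1 in PTK7 cells were the only calls among the 60 pairs of a gene and a line set against HT1080 cells.

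SEMA3C, a secreted class 3 semaphorin that binds both neuropilins, differed from SEMA3A in the lines above HT1080 cells. It read 401 in Chz cells, 139 in PTK7 cells, 297 in sPTK7 cells, 252 in cPTK7/622-1070 cells, 240 in cPTK7/726-1070 cells and 361 in shPTK7 cells, against 248 in HT1080 cells. Chz and shPTK7 cells were highest and PTK7 cells lowest, and the C-terminal fragment lines stayed within 1.04-fold of HT1080 cells. The log2 folds were 0.69 in Chz cells, -0.84 in PTK7 cells and 0.54 in shPTK7 cells, none of them 2-fold.

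SEMA7A, a lipid-anchored semaphorin that signals through plexin C1 and integrins, followed another order. It read 402 in Chz cells, 353 in PTK7 cells, 592 in sPTK7 cells, 314 in cPTK7/622-1070 cells, 296 in cPTK7/726-1070 cells and 278 in shPTK7 cells, against 488 in HT1080 cells. It was highest in sPTK7 cells and lowest in shPTK7 cells, where it was 1.75-fold lower than in HT1080 cells. The cPTK7/726-1070 and cPTK7/622-1070 lines were 1.65-fold and 1.55-fold lower. None of these differences was 2-fold, and 3.31% of tested genes were at least as low in shPTK7 cells.

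**Figure D2:**
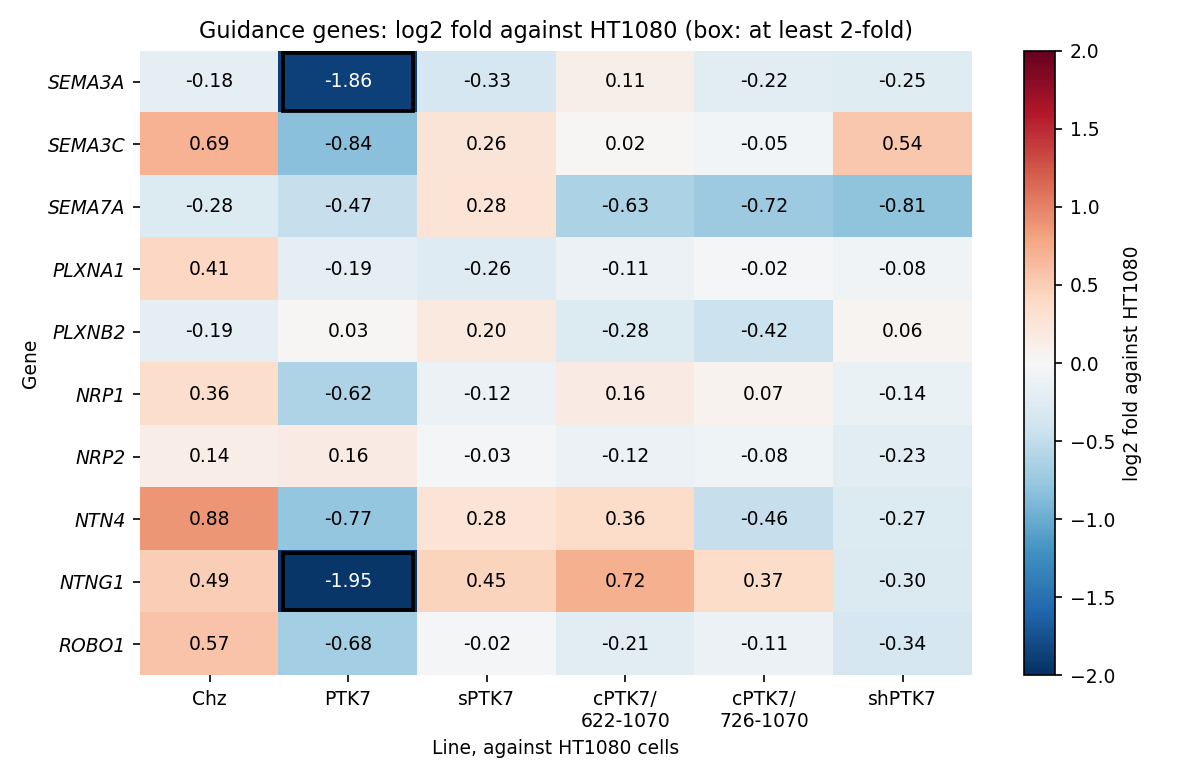
Log2 fold of each gene (rows) in each line (columns) against HT1080 cells, with red for higher, blue for lower and a box around differences of at least 2-fold. The boxes are SEMA3A (-1.86) and NTNG1 (-1.95) in PTK7 cells.

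The plexins moved little. PLXNA1 encodes the A-type plexin that signals for class 3 semaphorins with a neuropilin. It read 1804 in Chz cells, 1186 in PTK7 cells, 1132 in sPTK7 cells, 1253 in cPTK7/622-1070 cells, 1336 in cPTK7/726-1070 cells and 1284 in shPTK7 cells, against 1354 in HT1080 cells. Chz cells stood above all other arrays, by a log2 fold of 0.41 over HT1080 cells. PLXNB2, a receptor for class 4 semaphorins, ranged between 1952 in sPTK7 cells and 1269 in cPTK7/726-1070 cells, against 1702 in HT1080 cells. Its log2 folds lay between -0.42 and 0.20. A dimmer PLXNB2 probe was detected on 4 arrays and read 88.5 in Chz cells, against 68.0 in HT1080 cells, whereas the bright probe was lower in Chz cells (log2 fold -0.19).

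The neuropilins differed between probes. NRP1, the coreceptor for SEMA3A and VEGF-A, has a bright probe annotated to transcript NM_003873, which encodes the membrane-spanning protein. This probe read 5638 in Chz cells, 2869 in PTK7 cells, 4047 in sPTK7 cells, 4926 in cPTK7/622-1070 cells, 4631 in cPTK7/726-1070 cells and 3996 in shPTK7 cells, against 4400 in HT1080 cells. PTK7 cells were lowest and Chz cells highest. The other NRP1 probe is annotated to NM_001024629, a shorter transcript whose protein lacks the membrane anchor. It read 1390 in Chz cells, 1545 in PTK7 cells, 1226 in sPTK7 cells, 1338 in cPTK7/622-1070 cells, 1314 in cPTK7/726-1070 cells and 1065 in shPTK7 cells, against 1054 in HT1080 cells. Here PTK7 cells were highest. The log2 fold of PTK7 over HT1080 cells was -0.62 on the long-transcript probe and 0.55 on the short-transcript probe, a difference of -1.17. In the other 5 lines the folds of the probes differed by -0.34 to -0.04. With no background correction, 75th percentile scaling or the authors' normalized values, the difference in PTK7 cells was -1.09, -1.15 and -1.08, and the directions held. Whether either probe is specific to its transcript was not tested.

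NRP2, the coreceptor for SEMA3F and VEGF-C, has 4 probes. The brightest, annotated to NM_201264, read 292 in Chz cells, 296 in PTK7 cells, 259 in sPTK7 cells, 243 in cPTK7/622-1070 cells, 250 in cPTK7/726-1070 cells and 225 in shPTK7 cells, against 265 in HT1080 cells. This was the narrowest range of the 10 genes. The probes annotated to NM_018534, AK024680 and NM_201266 were each highest in Chz cells, with log2 folds over HT1080 cells of 0.87, 0.89 and 0.61, against 0.14 on the brightest probe. In PTK7 cells the 4 folds lay between -0.09 and 0.16. The AK024680 probe was not detected in cPTK7/726-1070 cells.

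**Figure D3:**
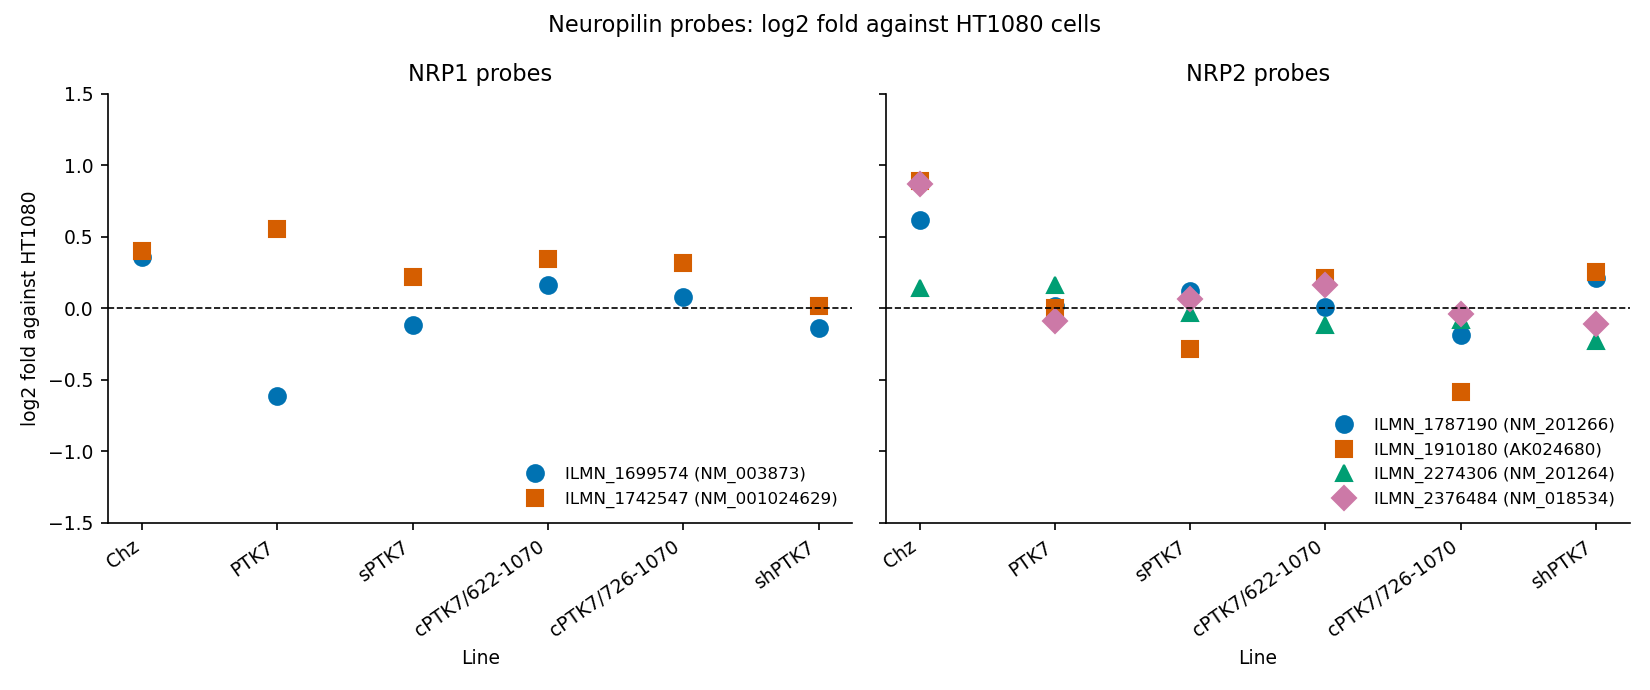
Log2 fold against HT1080 cells (vertical axis, dashed line at no difference) of each NRP1 probe (left) and NRP2 probe (right) in the 6 lines (horizontal axis), 1 symbol per probe with its transcript. The NRP1 probes part in PTK7 cells (-0.62 and 0.55), and 3 of the 4 NRP2 probes lie above 0.5 in Chz cells.

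The constructs of Chz and PTK7 cells both encode full-length PTK7 and differ by the Chuzhoi mutation. Setting these lines against each other does not use the HT1080 array. They are separate stable lines with 1 array each, so an effect of the mutation cannot be told apart from other differences between the lines. Of the 10 genes 5 were called higher in Chz cells than in PTK7 cells, while 6.02% of all 12018 tested genes were. None of the 10 was called lower, while 4.39% of all tested genes were. NTNG1 was 5.41-fold higher (log2 fold 2.43), SEMA3A 3.20-fold (1.68), NTN4 3.14-fold (1.65), SEMA3C 2.90-fold (1.53) and ROBO1 2.38-fold (1.25). NRP1 lay just under the limit at 1.97-fold on its bright probe, and its short-transcript probe had a log2 fold of -0.15. The remaining genes, PLXNA1, SEMA7A, PLXNB2 and NRP2, had log2 folds of 0.61, 0.19, -0.22 and -0.02. The dimmer NRP2 probes, annotated to NM_018534, AK024680 and NM_201266, read higher in Chz cells, at 0.96, 0.88 and 0.60, and were not called. The median over the 10 genes was 1.11, against -0.01 over all tested genes. Without background correction 2 of the 5, NTN4 and NTNG1, stayed at least 2-fold, while SEMA3A, SEMA3C and ROBO1 had log2 folds of 0.94, 0.96 and 0.55. For SEMA3C, NTN4, NTNG1 and ROBO1 the lines lay on opposite sides of HT1080 cells, whereas for SEMA3A Chz cells were near HT1080 cells (log2 fold -0.18).

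**Figure D4:**
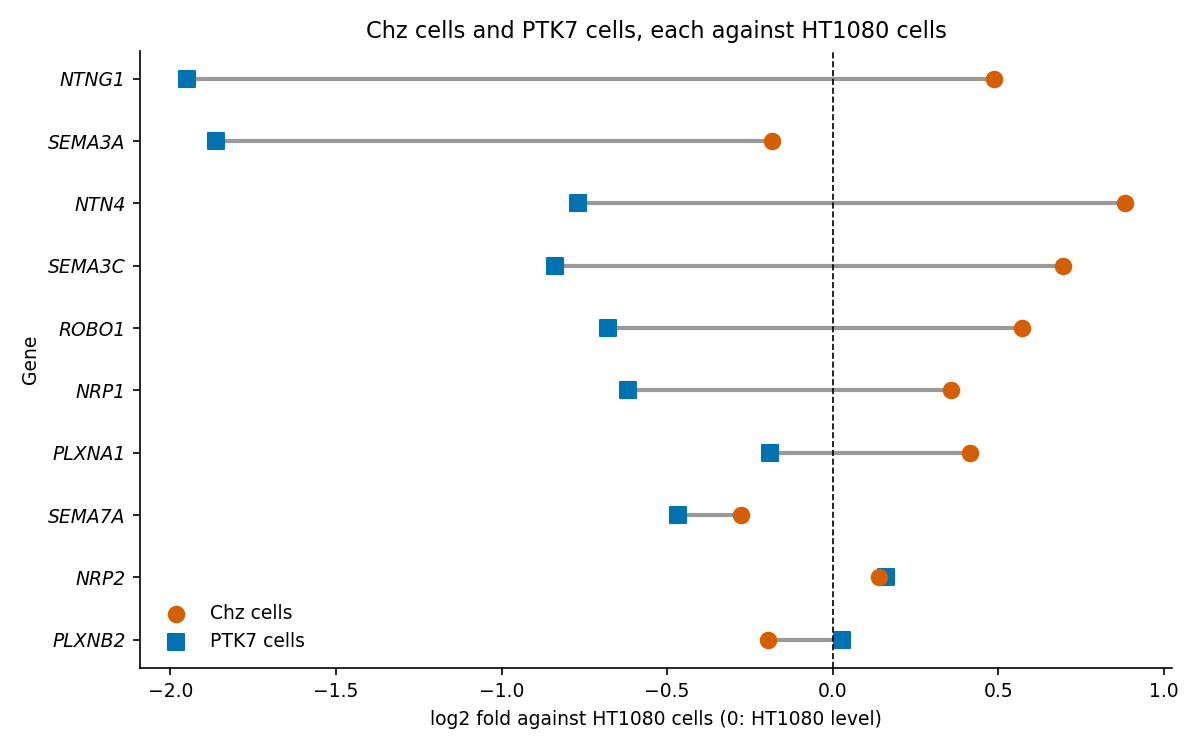
Log2 fold against HT1080 cells (horizontal axis, dashed line at the HT1080 level) of each gene (rows, ordered by the Chz to PTK7 difference) in Chz cells (circles) and PTK7 cells (squares), joined by a grey line. The lines are longest for NTNG1 (2.43) and SEMA3A (1.68), and the symbols nearly meet for NRP2 on its brightest probe, the only one drawn.

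The promoters of the genes that parted most between Chz and PTK7 cells are shown so that their sequences can be set side by side. RefSeq (GRCh38.p14) gave windows of 250 bases upstream of 14 start sites for 8 of the 10 genes, with no entry used for SEMA3A and NRP1. For NTNG1, NTN4, SEMA3C and ROBO1, which have 9 windows, 1 window each is printed, for NTNG1 and NTN4 the one holding a motif match. They are NTNG1 at chr1:107140789-107141038 on the plus strand, and on the minus strand NTN4 at chr12:95791156-95791405, SEMA3C at chr7:80919052-80919301 and ROBO1 at chr3:79767999-79768248. Each runs 5′ to 3′ towards the start site, and capitals mark motif matches on either strand.
NTNG1: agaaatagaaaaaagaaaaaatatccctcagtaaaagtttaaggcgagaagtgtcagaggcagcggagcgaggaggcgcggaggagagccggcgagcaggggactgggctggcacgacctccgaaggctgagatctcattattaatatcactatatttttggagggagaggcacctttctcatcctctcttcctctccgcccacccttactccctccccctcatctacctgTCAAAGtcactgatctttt
NTN4: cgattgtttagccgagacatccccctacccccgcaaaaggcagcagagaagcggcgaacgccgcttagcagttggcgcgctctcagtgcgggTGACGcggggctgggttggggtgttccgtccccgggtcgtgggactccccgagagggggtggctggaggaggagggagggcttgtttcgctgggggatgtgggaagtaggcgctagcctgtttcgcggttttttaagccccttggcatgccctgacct
SEMA3C: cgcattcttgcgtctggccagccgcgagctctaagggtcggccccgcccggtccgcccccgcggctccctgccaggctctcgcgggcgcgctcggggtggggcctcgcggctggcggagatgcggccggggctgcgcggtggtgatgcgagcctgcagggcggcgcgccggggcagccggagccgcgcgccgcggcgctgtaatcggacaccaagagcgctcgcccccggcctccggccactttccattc
ROBO1: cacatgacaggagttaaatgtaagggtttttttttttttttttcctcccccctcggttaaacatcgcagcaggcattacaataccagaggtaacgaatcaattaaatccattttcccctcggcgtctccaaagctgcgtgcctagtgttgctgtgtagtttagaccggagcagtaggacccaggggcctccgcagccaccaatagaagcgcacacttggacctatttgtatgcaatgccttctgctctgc
The motifs searched were the CRE half-site TGACG, bound by CREB family factors, the AP-1 site TGANTCA, and the TCF/LEF core CTTTGA, which do not overlap in these windows. The TCF/LEF core was found on the opposite strand in this NTNG1 window, 19 bases before the start site at its first base, and the CRE half-site in this NTN4 window 158 bases before it. The 9 windows held no other match. Over the 14 windows of all 8 genes, 3 held the CRE half-site, 2 the TCF/LEF core and none the AP-1 site, against 21.2%, 11.2% and 6.57% of 35116 windows of the same length. The windows also differed in composition, with a GC content of 50.4% for NTNG1, 64.4% for NTN4, 77.6% for SEMA3C and 48.0% for ROBO1. A match says only that the letters are present. Start sites were not matched to the transcripts of the probes, so a printed window need not belong to the transcript whose signal differed.

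Outside PTK7 cells no gene was called against HT1080 cells. In Chz cells 0 of the 10 were called, while 2.26% of all tested genes were called higher and 1.97% lower, although 7 of the 10 read higher and the median log2 fold was 0.39, against -0.01 over all genes. In PTK7 cells 8 of the 10 read lower with a median of -0.65, against 0.01 over all genes. In sPTK7 cells 5 genes read higher and 5 lower with a median of 0.09, with 2.08% of all genes called higher and 2.08% lower. In cPTK7/622-1070 cells 5 read higher and 5 lower with a median of -0.04, with 0.783% of all genes called higher and 0.85% lower. In cPTK7/726-1070 cells 8 read lower with a median of -0.10, with 1.7% of all genes called higher and 1.76% lower. In shPTK7 cells 8 read lower, all but SEMA3C and PLXNB2, with a median of -0.24, with 1.32% of all genes called higher and 1.76% lower. Of all tested genes, 48.6% read higher in Chz, 48.3% in sPTK7 and 50.4% in cPTK7/622-1070 cells. The share reading lower was 49.3% in PTK7, 50.4% in cPTK7/726-1070 and 48.1% in shPTK7 cells. Their median log2 fold was -0.014 in sPTK7, 0.003 in cPTK7/622-1070, -0.004 in cPTK7/726-1070 and 0.014 in shPTK7 cells. The 6 comparisons share the HT1080 array, so a deviation on it enters each of them. On the brightest probes that array was neither the highest nor the lowest of the 7 for any of the 10 genes. It was the highest for only 6.74% and the lowest for 6.78% of the 9552 genes detected on all arrays. On the short-transcript NRP1 probe it was the lowest.

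Some of the genes followed each other over the 7 arrays, given here as a description only because the arrays share the chip and the normalization. The Pearson correlation of log2 signals was 0.93 for SEMA3A with NTNG1, 0.90 for NRP1 with NTNG1, 0.86 for SEMA3A with NRP1, and 0.85 for both NRP1 and NTN4 with ROBO1. SEMA3A, NRP1, NTN4, NTNG1 and ROBO1 all had their lowest signal on the PTK7 array, so these values can rest largely on that single array. SEMA7A with PLXNB2 gave 0.57. Other pairs were negative, down to -0.57 for SEMA3A with NRP2 and -0.55 for PLXNB2 with NRP1. The NRP1 values are those of its bright probe, lowest in PTK7 cells, where its other probe was highest. Over all 9551 other genes detected on every array, those most like NTNG1 were SNTB2 (0.99), WRN (0.99) and NUDT18 (0.98). For SEMA3A they were INTS9 (0.99), ADGRL4 (0.99) and LCP1 (0.98), and for NTN4 they were MCFD2 (0.98), UBE2Z (0.97) and POTEF (0.97). A correlation of at least 0.95 was reached by 30, 35 and 19 genes for NTNG1, SEMA3A and NTN4. Such a likeness can likewise reflect mainly a low signal on the PTK7 array. Correlations without that array were not computed.

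Of 92 other genes of these systems, covering the remaining ligands, receptors, partners and effectors, 89 had a probe and 67 were detected on at least 1 array. In PTK7 cells, of 57 detected there or in HT1080 cells, 2 were called higher (FES and DSCAM) and 7 lower (SEMA3F, SEMA5A, PLXNB1, NRCAM, DPYSL2, FYN and ENAH), beside 2.79% and 3.98% of all tested genes. In Chz cells, of 55, 1 was called higher (PLXNA4) and 3 lower (SEMA5A, PGF and NRCAM), beside 2.26% and 1.97%. In sPTK7 cells, of 55, 1 was called higher (MICAL1) and 3 lower (PLXNB1, NRCAM and ERBB2), beside 2.08% each. In cPTK7/622-1070 cells, of 58, NTN5 was called higher and PLXNB1 lower, beside 0.783% and 0.85%. In cPTK7/726-1070 cells, of 57, PLXNA3 and PLXNB1 were called lower, beside 1.76%, and none higher, beside 1.7%. In shPTK7 cells, of 62, NRCAM was called higher, beside 1.32%, and none lower, beside 1.76%. FYN, PGF and MICAL1 fall outside the 12 genes with the largest fold and are named to complete the counts. The median log2 fold of the genes detected on either array lay between -0.07 in PTK7 cells and 0.10 in Chz cells, and was 0.15 for Chz over PTK7 cells.

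Effectors of semaphorin receptors gave the largest folds. DPYSL2, a microtubule-binding protein that relays SEMA3A signals, read 10415 in Chz cells, 2631 in PTK7 cells, 9168 in sPTK7 cells, 10044 in cPTK7/622-1070 cells, 7201 in cPTK7/726-1070 cells and 4431 in shPTK7 cells, against 8583 in HT1080 cells. Relative to HT1080 cells it was 3.26-fold lower in PTK7 cells, and Chz cells were 3.96-fold above PTK7 cells. The study also names DPYSL2 among the genes lowered in PTK7 cells, from these same arrays, so this call is not independent evidence of its direction. FES, a cytoplasmic tyrosine kinase that binds plexin A1, went the other way, with 622 in Chz cells and 1486 in PTK7 cells, against 432 in HT1080 cells, 3.44-fold higher in PTK7 cells. ENAH, which extends actin filaments at the leading edge, read 116 in PTK7 cells, against 305 in HT1080 cells, 2.64-fold lower. DSCAM, an adhesion protein that can act as a netrin receptor, read 227 in PTK7 cells, against 78.6 in HT1080 cells, 2.89-fold higher. Second probes, each detected on 6 arrays, gave smaller log2 folds in PTK7 cells, 0.54 for DSCAM and -0.89 for ENAH, which were not called.

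Among receptors and ligands, PLXNB1, the receptor for SEMA4D, was lower than in HT1080 cells on all 6 arrays. It read 88.0 in Chz cells, 66.6 in PTK7 cells, 54.9 in sPTK7 cells, 73.4 in cPTK7/622-1070 cells, 47.6 in cPTK7/726-1070 cells and 106 in shPTK7 cells, against 152 in HT1080 cells. It was called lower in 4 lines, by 2.29-fold in PTK7 cells and 2.07-fold in cPTK7/622-1070 cells, and by at least 2.56-fold in sPTK7 cells and at least 2.53-fold in cPTK7/726-1070 cells, where it was not detected. These calls share the single HT1080 array, the highest of all arrays for PLXNB1. A deviation on that array enters each of them, so they are not independent of each other. NRCAM, an adhesion protein of the L1 family that joins neuropilin-2 in semaphorin receptors, read 44.5 in Chz cells, 65.2 in PTK7 cells, 35.3 in sPTK7 cells and 316 in shPTK7 cells, against 147 in HT1080 cells. It was 2.16-fold higher in shPTK7 cells, 2.25-fold lower in PTK7 cells, and at least 2.60-fold and 2.47-fold lower in Chz and sPTK7 cells, where it was not detected. Its second probe gave log2 folds of 1.38 in shPTK7 cells, -0.84 in Chz cells, -0.76 in sPTK7 cells and -0.38 in PTK7 cells.

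The other named genes were called in 1 or 2 lines each. SEMA3F, a ligand of neuropilin-2, was 2.25-fold lower in PTK7 cells, and SEMA5A, a transmembrane semaphorin, was not detected in Chz or PTK7 cells and at least 2.42-fold and 2.25-fold lower there. PLXNA3, an A-type plexin, was at least 2.83-fold lower in cPTK7/726-1070 cells. ERBB2, a receptor kinase that associates with B-type plexins, was 2.34-fold lower in sPTK7 cells. PLXNA4 was 2.29-fold higher in Chz cells on its brightest probe, whereas a second probe, detected on 4 arrays but not in Chz cells, gave a log2 fold of -0.52. NTN5 was at least 2.29-fold higher in cPTK7/622-1070 cells, not being detected in HT1080 cells. Of all these calls against HT1080 cells, those of DPYSL2, FES and ERBB2 stayed at least 2-fold without background correction. With a detection p under 0.01 in place of 0.05, the calls of PLXNB1, SEMA5A, PLXNA3, PLXNA4 and NTN5 were lost, as were those of NRCAM outside shPTK7 cells.

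**Figure D5:**
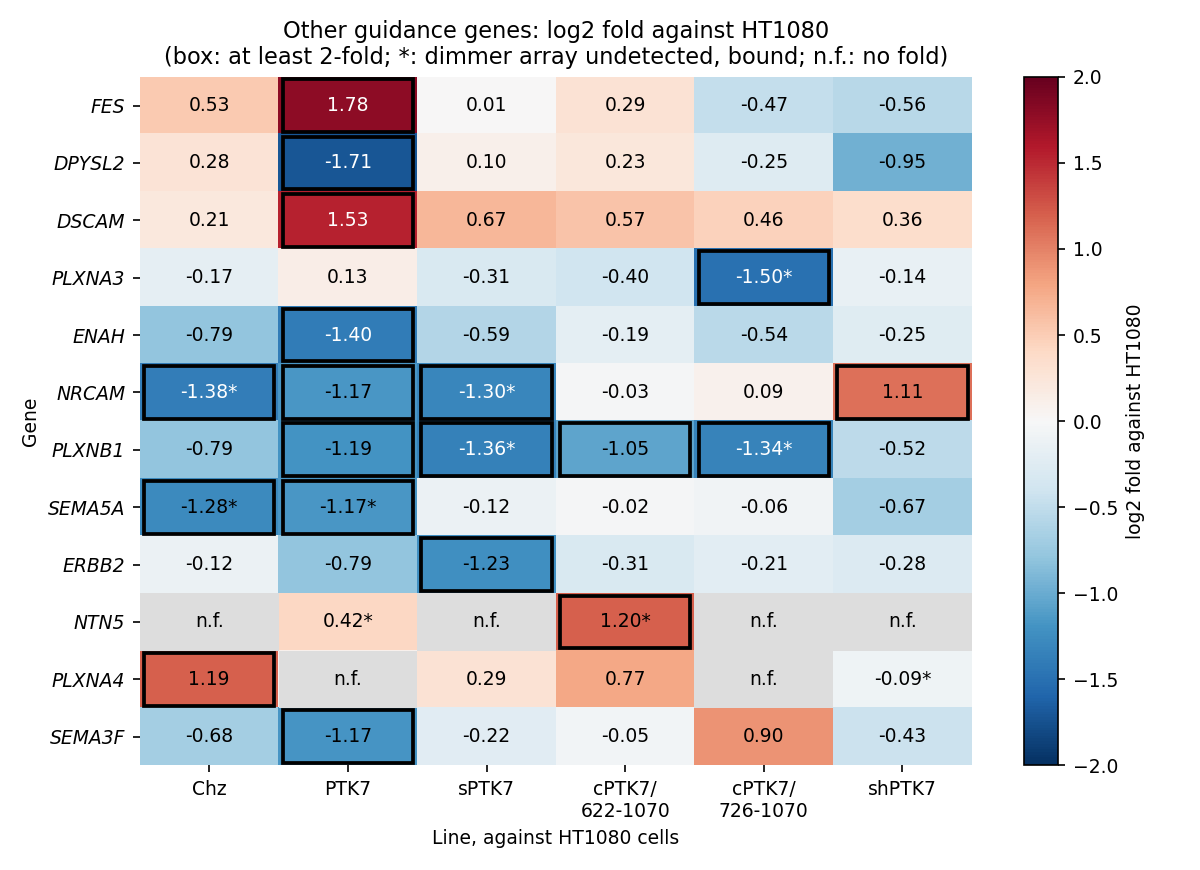
Log2 fold against HT1080 cells of the 12 other guidance genes with the largest fold (rows) in the 6 lines (columns), red for higher and blue for lower, a box for at least 2-fold, a star where the dimmer array was not detected and the fold is a bound, and n.f. where no fold is given because undetected signals leave no direction. PTK7 cells hold 8 boxes, among them FES (1.78) and DPYSL2 (-1.71).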

How the data were processed

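RNA of HT1080 cells and 6 derived lines was measured on 1 array each. The authors extracted the signals with the BeadArray Reader, and the deposited non-normalized intensity is the mean bead signal of 47230 probes. Beside it the authors deposited a detection p-value per probe and array. A further table of intensities normalized by the authors with GeneSpring GX, on a linear scale, served as an alternative. Its normalization method is not given in the sources used here.

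Signals were background-corrected with neqc of limma 3.58.1 in R 4.3.3, the background being estimated through the detection p-values, with an offset of 16, quantile normalization and log2. The offset understates folds of dim genes. Signals below an array's lowest detected signal were raised to it, and a fold on such a signal is a bound. Genes took their brightest probe. A call needed a 2-fold difference, and on the brighter of the arrays a detection p under 0.05. The t-test the methods name could not be run with 1 array per line. The processing was tested on simulated data whose known changes were placed only in genes bright on every array. Genes dim on any array, such as SEMA3A in PTK7 cells, were not covered by it.

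Named were the 10 genes with all probes, PTK7, the 12 other guidance genes with the largest called fold, and the 3 genes most like each of the 3 widest-ranging members. The members and lists were chosen with earlier results of these data known. Alternatives were no background correction, 75th percentile scaling, the authors' table, a detection p under 0.01, no floor, any probe, the median array as reference and a 1.5-fold limit. Python 3.11.15, numpy 2.4.6, pandas 2.3.3 and matplotlib 3.10.9 were used.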

Additional observations from a re-analysis of the deposited data

Results flagged for a closer look

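For 4 of the 10 guidance genes Chz and PTK7 cells lay on opposite sides of HT1080 cells and at least 2-fold apart. The log2 fold of Chz over PTK7 cells was 2.43 for NTNG1, 1.65 for NTN4, 1.53 for SEMA3C and 1.25 for ROBO1. With 1 array per line these differences were not tested.

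NRCAM was called in opposite directions in different lines, with a log2 fold against HT1080 cells of 1.11 in shPTK7 cells, -1.17 in PTK7 cells, -1.38 in Chz cells and -1.30 in sPTK7 cells. The last 2 rest on arrays where NRCAM was not detected. The differences between the lines were not tested.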

How the results depend on the processing

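SEMA3A and NTNG1 were called lower in PTK7 cells under every alternative run, with log2 folds between -1.86 and -1.07 and between -2.32 and -1.31, the lowest NTNG1 value being that against the median array. The 1.5-fold limit, any probe, no floor and a detection p under 0.01 could not have removed these calls. Both genes passed the stricter detection limit on both arrays. All 70 log2 folds of the 10 genes kept their sign when the background correction, scaling, source table, floor or detection limit was changed. Removing the floor could not alter these folds, because the brightest probes were detected on every array. Other probes of a gene could differ in sign, as for NRP1 in PTK7 cells (-0.62 and 0.55) and PLXNB2 in Chz cells (-0.19 and 0.38). Of the 5 genes called higher in Chz than in PTK7 cells, 2 were called without background correction and 2 in the authors' table, where SEMA3A, SEMA3C and ROBO1 gave 0.94, 0.96 and 0.55, and 0.95, 0.96 and 0.58. At a 1.5-fold limit, 3 of the 60 gene and line pairs were called higher and 9 lower against HT1080 cells, while 7.08% and 7.5% of such pairs over all tested genes were. Over the other guidance genes, 6 calls higher and 16 lower became 1 and 2 without background correction, 1 and 2 in the authors' table, and 6 lower at a detection p under 0.01. At that detection limit FES and DSCAM in PTK7 cells, MICAL1 in sPTK7 cells and NRCAM in shPTK7 cells stayed called higher.

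Calls over all genes were 515 in Chz, 812 in PTK7, 500 in sPTK7, 196 in cPTK7/622-1070, 415 in cPTK7/726-1070 and 377 in shPTK7 cells, and 1251 for Chz over PTK7 cells. In the same order they were 156, 298, 155, 32, 112, 97 and 521 without background correction, and 158, 299, 156, 32, 113, 95 and 512 in the authors' table. Without a floor they were 824, 787, 408, 712 and 607 in Chz, sPTK7, cPTK7/622-1070, cPTK7/726-1070 and shPTK7 cells, and 124 in cPTK7/622-1070 cells at a detection p under 0.01. Counts that moved by a smaller ratio under these alternatives are left out. With 75th percentile scaling the median over all genes for Chz over PTK7 cells was -0.14, against -0.01, and 46.2% of calls were higher, against 57.8%. The same 5 guidance genes were called there. With the median array as reference, 73.3% of calls in cPTK7/622-1070 and 62.4% in cPTK7/726-1070 cells were higher, against 48.0% and 49.2%. Dim signals limit ROBO1 and the second probes of NTN4 and PLXNB2. No paired analysis was possible because each line has 1 array.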
